A study of Mus musculus with 292 samples.

Results

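Bile acid synthesis and transport were followed through the day in mouse liver and in 3 brain regions by way of 10 genes, chosen by symbol of 48795 gene identifiers in the count tables: Cyp7a1, Cyp8b1, Cyp27a1, Cyp7b1 and Baat for synthesis, Abcb11, Abcc2 and Abcb4 for export into bile, and Slc10a1 and Slco1b2 for uptake from blood. Each symbol matched 1 Ensembl identifier, and all 10 passed the filter on low counts in liver. In liver, 8 of the 10 varied with time of day, where 72.8% of all genes tested did. Among the 10, Abcb11 and Cyp7a1 had the widest fitted ratios, with peaks at different hours, and Cyp27a1 and Cyp7b1 were not called over all 77 liver libraries.

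Bile acids are made from cholesterol in hepatocytes. In the classic pathway Cyp7a1, cholesterol 7alpha-hydroxylase, is the rate-limiting enzyme, and Cyp8b1, sterol 12alpha-hydroxylase, directs the product towards cholic acid. In the alternative pathway the mitochondrial sterol 27-hydroxylase Cyp27a1 and the oxysterol 7alpha-hydroxylase Cyp7b1 act, and Baat couples bile acids to taurine or glycine. Abcb11, the bile salt export pump, Abcc2, which exports conjugated organic anions, and Abcb4, which moves phosphatidylcholine into bile, sit in the canalicular membrane. Slc10a1, a sodium-dependent bile acid importer, and Slco1b2, an organic anion importer, take bile acids back up from portal blood, which closes the enterohepatic circulation.

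All animals were C57BL/6J males of wild-type genotype at 26 weeks of age, with no treatment named in the labels, so every group is a time point in the same genotype. Right-hemisphere cortex, right-hemisphere striatum, hypothalamus and liver were taken every 3 h over 36 h, and the libraries fall into 8 groups by zeitgeber time (ZT), a clock that conventionally starts at lights-on; the labels do not give the light schedule. In liver there were 12 libraries each at ZT0, ZT3, ZT6 and ZT12, 11 at ZT9, and 6 each at ZT15, ZT18 and ZT21, the last of these sampled in the first cycle only. The 292 libraries comprised 77 of liver, 78 of cortex, 60 of striatum and 77 of hypothalamus, from 79 mouse codes, and most mice gave more than 1 tissue.

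Liver libraries held 11.7 M to 41.9 M gene counts, with a median of 32.9 M. A pair of liver libraries stood apart. ZT18 replicate 4 was the shallowest, with 62.3% of its counts on Gm42418 against 0.346% to 4.44% in the 75 other liver libraries, and its scaling factor was 0.217. ZT6 replicate 7 had a scaling factor of 0.719, where the 75 others had at least 0.965. After scaling by it, this library had the highest liver values of Cyp8b1, Cyp27a1 and Slc10a1. Without the factor, other livers were higher for Cyp8b1 and Slc10a1. Of 215 brain libraries, 4 held over 100 counts of the hepatocyte gene Alb, namely cortex ZT0 replicate 10, striatum ZT9 replicate 9, and hypothalamus ZT0 replicate 12 and ZT21 replicate 6. Some results that rest on these libraries are given with and without them, and the others are over all libraries. Defining hepatocyte markers were abundant in every liver library, with a sum over 6 genes of 77418 to 141823 CPM, counts scaled to library size.

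The genes lie on 9 chromosomes. In GRCm38 coordinates Cyp7a1 (ENSMUSG00000028240) spans chr4:6265612-6275633 and Baat (ENSMUSG00000039653) chr4:49489422-49506557, both on the minus strand. Cyp8b1 (ENSMUSG00000050445, chr9:121914356-121916305, minus) is a gene of 1 exon. Cyp27a1 (ENSMUSG00000026170) spans chr1:74713574-74737892 on the plus strand and Cyp7b1 (ENSMUSG00000039519) chr3:18071950-18243338 on the minus strand. Abcb11 (ENSMUSG00000027048) spans chr2:69238282-69342616 on the minus strand, and 3.01% of its exonic bases overlap Gm13613 and Gm13614 on the other strand. Abcc2 (ENSMUSG00000025194) is at chr19:43782192-43840740 and Abcb4 (ENSMUSG00000042476) at chr5:8893717-8959231, both on the plus strand. Slc10a1 (ENSMUSG00000021135) is at chr12:80953183-80968705 on the minus strand and Slco1b2 (ENSMUSG00000030236) at chr6:141629518-141686646 on the plus strand. No other annotated gene shares exonic bases with the other 9 members.

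Promoter windows from RefSeq (GRCm38.p6) covered 7 of the 10 genes. Of these, 3 are shown because they belong to genes with a liver rhythm and hold the rarest motifs searched, each as the 250 bases before the start, 5′ to 3′ on the gene's strand. Capitals mark CAAAGTCCA and TATAAA in Cyp8b1 (chr9:121916306-121916555, minus), an inverted repeat in Abcb11 (chr2:69342617-69342866, minus), and TATAAA and an inverted repeat in Slco1b2 (chr6:141629268-141629517, plus). The inverted repeat searched was GGNCA and TGACCT around 1 free base, N being any base.
Cyp8b1: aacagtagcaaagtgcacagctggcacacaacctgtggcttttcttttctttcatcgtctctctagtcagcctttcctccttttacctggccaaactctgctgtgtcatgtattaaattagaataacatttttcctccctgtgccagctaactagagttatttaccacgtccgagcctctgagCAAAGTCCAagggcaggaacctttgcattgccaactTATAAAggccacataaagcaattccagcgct
Abcb11: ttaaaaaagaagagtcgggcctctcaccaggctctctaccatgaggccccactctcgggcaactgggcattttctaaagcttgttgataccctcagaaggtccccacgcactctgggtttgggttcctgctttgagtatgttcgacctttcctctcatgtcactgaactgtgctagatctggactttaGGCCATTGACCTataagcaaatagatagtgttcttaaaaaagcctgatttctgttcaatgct
Slco1b2: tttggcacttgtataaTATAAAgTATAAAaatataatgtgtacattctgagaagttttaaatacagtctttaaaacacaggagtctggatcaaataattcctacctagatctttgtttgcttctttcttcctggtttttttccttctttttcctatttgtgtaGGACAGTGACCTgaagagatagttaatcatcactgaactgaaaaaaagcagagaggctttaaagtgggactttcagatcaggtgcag

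Counting back from the start, CAAAGTCCA lay at -67 to -59 of Cyp8b1, a match found in 0.381% of the windows of 27025 genes at this length. The inverted repeat, the form known as IR-1 of the nuclear receptor motif AGGTCA, lay at -62 to -51 of Abcb11 and at -87 to -76 of Slco1b2 and in 0.0814% of all windows; this pattern was written down after the Abcb11 sequence had been read, so its match there is no finding. AGGTCA itself overlaps it in those genes and was also present in the window of Abcc2 and in window 2 of Slc10a1, not in its window 1. AGGTCA matched 13.8% of all windows, which count only the first window listed for each gene. TATAAA was present in windows of Cyp8b1, Slc10a1 and Slco1b2, and in 3504 of the 27025. The E-box CACGTG (6.05% of all windows) and the D-box TTANGTAA (2.11%) had no match in the windows of the 7 genes. Both strands were searched, and a match describes the letters only.

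Compared per length of transcript, the importer Slc10a1 had the highest level of the 10 genes in liver. On the authors' FPKM scale (fragments scaled to gene length and library size) its median was 392 over 77 libraries, followed by Cyp27a1 at 255, Slco1b2 at 209.6, Cyp8b1 at 209, Baat at 155, Cyp7b1 at 154, Abcb11 at 128, Abcc2 at 81.0, Cyp7a1 at 43.0 and Abcb4 at 25.2. Slc10a1 was above Cyp27a1 in 76 of 77 libraries. Slco1b2 and Cyp8b1, with 39 of 77 libraries in that order, and Baat and Cyp7b1, with 38 of 77, could not be ranked. The FPKM values of Slc10a1 imply a gene model of 1674 bases, while the annotation used here gives 2199 exonic bases, and a longer model would lower its FPKM. Within a ZT group the rate-limiting enzyme Cyp7a1 varied most between mice, with a median coefficient of variation of 33.8%, ahead of Cyp8b1 at 24.96% and Cyp7b1 at 19.03%, while Cyp27a1 varied least, at 8.44%.

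**Figure D1:**
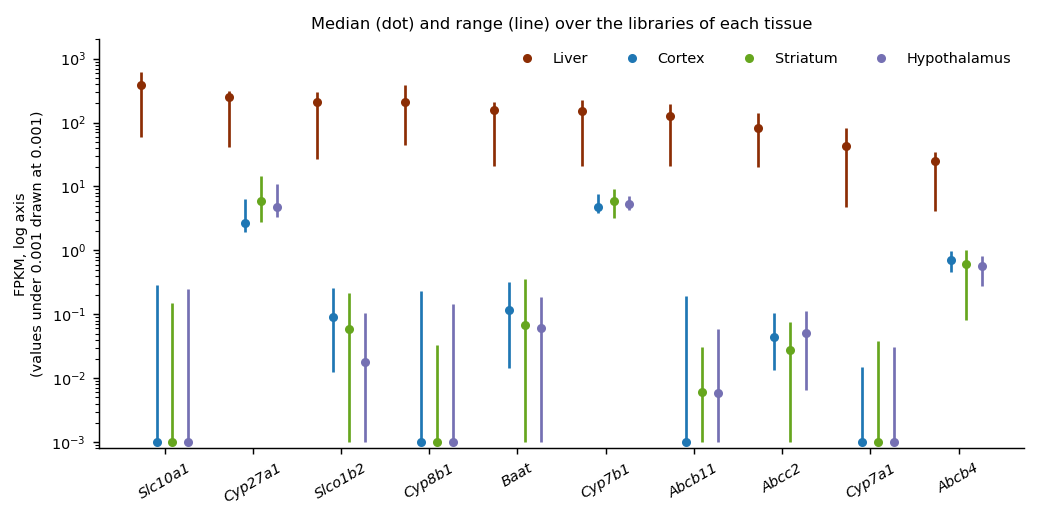
Authors' FPKM (log axis, values under 0.001 drawn at 0.001) of the 10 genes in each tissue, as the median (point) and the range over libraries (line). In liver the medians run from 25.2 for Abcb4 to 392 for Slc10a1, while in brain Cyp27a1, Cyp7b1 and Abcb4 alone reach medians of 0.573 or more.

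A 24 h cosine was fitted to the liver counts of every gene with edgeR, and a gene was called at a Benjamini-Hochberg adjusted p under 0.05. By this test 8 of the 10 genes were called, where 72.8% of 16159 genes were, a share too close to set the members apart. Both the call and a fitted peak at least 1.5-fold above the trough were reached by 4 of 10 members (Cyp7a1, Cyp8b1, Abcb11 and Abcc2), against 27.9% of all genes. The median log2 ratio was 0.52 over the members and 0.38 over all genes tested. Between a gene's highest and lowest ZT group the libraries did not overlap for 5 members (Cyp7a1, Abcb11, Abcc2, Abcb4 and Baat), against 27.3% of all genes. Bulk counts cannot tell fewer cells of a type from less RNA per cell.

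Cyp7a1 was lowest at ZT3 and high through the rest of the day apart from ZT6. At ZT3 it ran from 18.9 through a median of 55.2 to 127 CPM over 12 livers, and at ZT15 from 156 through 269 to 324 CPM over 6 livers. The ZT3 livers all lay below those of ZT15, groups that did not overlap for 12.0% of all genes. They also lay below those of ZT18 and ZT21, for which no such share was computed. From ZT9 to ZT21 the group medians stayed between 186 and 269 CPM, with ranges that overlapped throughout, and at ZT0 the median was 192 CPM (87.0 to 348). At ZT6, between the low and the high hours, the livers ranged from 46.5 to 263 CPM around a median of 105. The mean of the 6 livers at ZT15, 249.9 ± 68.0 CPM (SD), was 4.17-fold that of the 12 at ZT3, 59.9 ± 32.9 CPM (SD). The fitted cosine had a log2 ratio of 1.34 ± 0.24 (SE) with its peak at ZT15.9 ± 0.651 h (edgeR adjusted p = 1.43e-05).

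Cyp8b1 was highest at ZT3 and lowest at ZT12. Its livers ranged from 362 through a median of 529 to 703.9 CPM at ZT3 and from 155 through 318 to 434 CPM at ZT12, so that 9 of the 12 livers at ZT3 lay above all of those at ZT12 while the groups overlapped. Means were 537 ± 122 and 297 ± 91.2 CPM (SD, n = 12 each), a ratio of 1.81. The cosine peaked at ZT0.660 ± 0.663 h with a log2 ratio of 0.76 ± 0.12 (edgeR adjusted p = 3.79e-07). The gene of the rate-limiting step was thus lowest in the ZT group in which the 12alpha-hydroxylase gene was highest.

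The 2 genes of the alternative pathway showed little change. Cyp7b1 had group medians of 309 to 388 CPM, with a highest mean of 398 ± 35.0 CPM at ZT15 and a lowest of 307 ± 44.3 CPM at ZT21 (SD over 6 livers each), groups that overlapped. Its log2 ratio was 0.08 ± 0.09 (edgeR adjusted p = 0.688). Cyp27a1 had group medians of 493.3 to 579 CPM. Its highest mean, 569 ± 43.5 CPM over the 6 livers at ZT15 (SD), and its lowest, 498 ± 25.9 CPM over the 11 at ZT9 (SD), differed by 1.14-fold. Over all libraries its log2 ratio was 0.07 ± 0.05 (edgeR adjusted p = 0.431). It depended on the pair of libraries that stood apart, at 420 CPM in ZT18 replicate 4 and 945 CPM in ZT6 replicate 7. Without both, Cyp27a1 was called at a log2 ratio of 0.14 ± 0.04, peaking at ZT19.8 (edgeR adjusted p = 0.00496), which brought the count to 9 of 10; leaving them out was chosen after seeing the data. That ratio lies below the median of 0.38 over all genes tested, and Cyp7b1 stayed uncalled at an edgeR adjusted p of 0.458.

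Baat, the conjugating enzyme, was highest at ZT21 and lowest at ZT12. It ran from 307 through 361 to 383 CPM at ZT21 and from 205 through 255 to 278 CPM at ZT12. The 6 livers at ZT21 all exceeded the 12 at ZT12, with means of 352 ± 31.7 and 249.7 ± 23.1 CPM (SD) and a ratio of 1.41. The cosine gave a log2 ratio of 0.43 ± 0.05 with a peak at ZT21.4 (edgeR adjusted p = 2.21e-11).

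**Figure D2:**
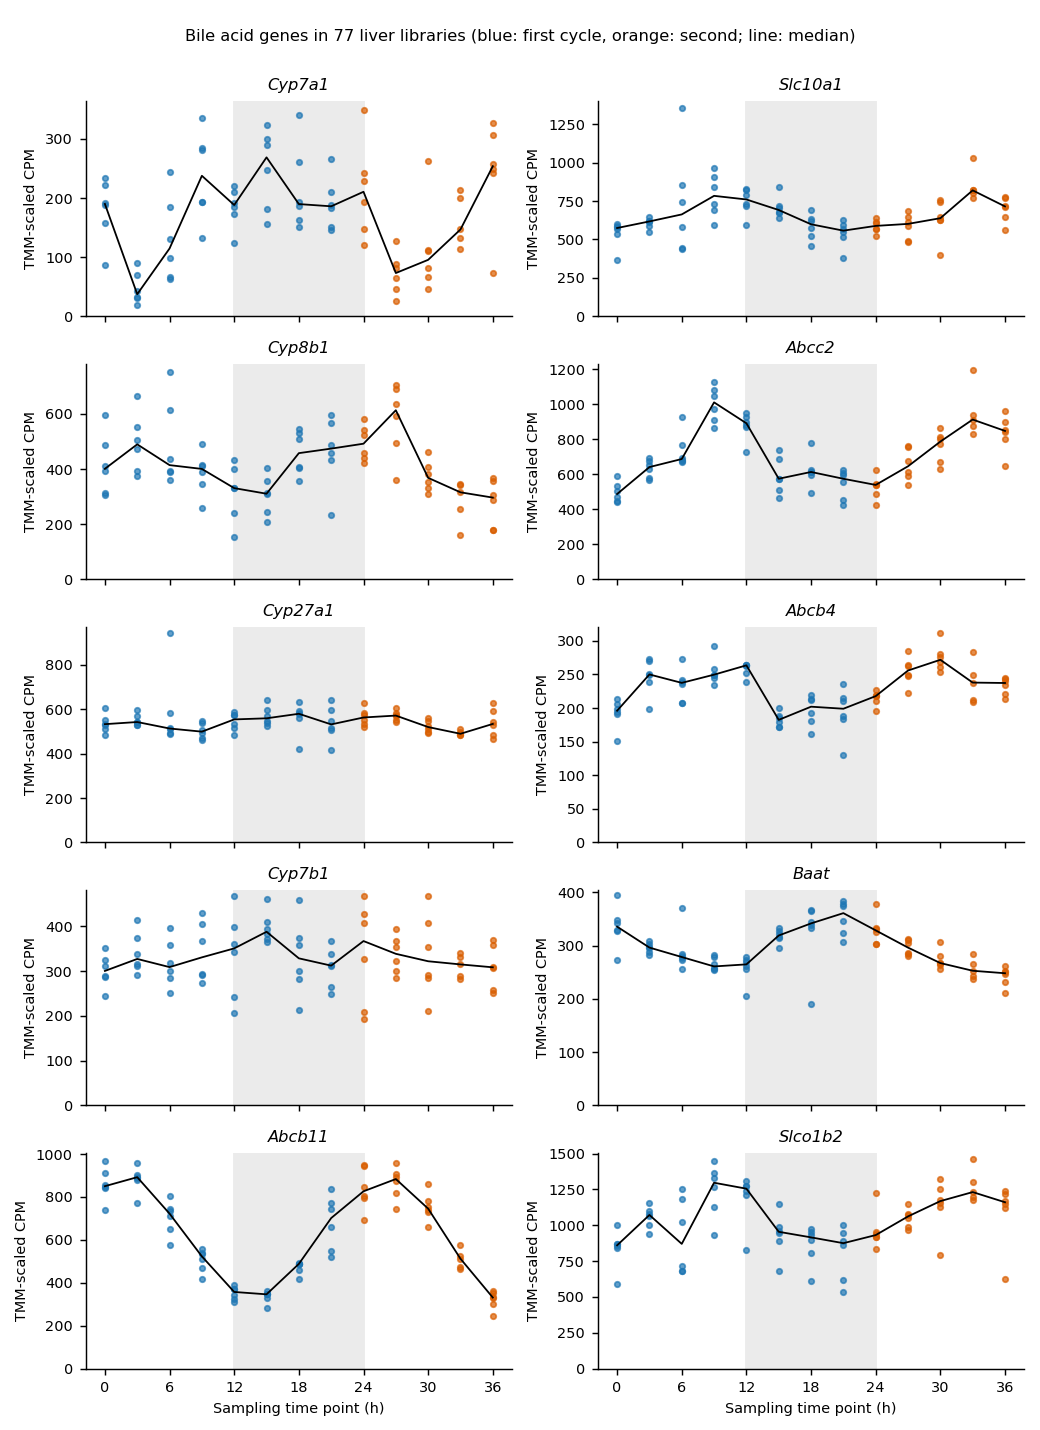
CPM of each of the 10 genes in every liver library against sampling time (0 to 36 h; grey marks hours 12 to 24), with first-cycle libraries in blue, second-cycle libraries in orange and a black line through the medians. Abcb11 falls after 3 h and again after 27 h, its rise from 15 h to 21 h being sampled in the first cycle only, and Cyp7a1 drops at 3 h and at 27 h.

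The bile salt export pump Abcb11 had the largest fitted ratio of the 8 called genes, within the error of that of Cyp7a1. Livers at ZT3 ran from 746 through 892 to 960 CPM and those at ZT12 from 243 through 338 to 388 CPM. All 12 livers at ZT3 exceeded all 12 at ZT12, and the means, 874 ± 65.9 and 336 ± 39.4 CPM (SD), differed 2.60-fold. At ZT15 the median was still 346 CPM (283 to 363), at ZT18 488 CPM (417 to 492) and at ZT21 701.7 CPM (522 to 835). The log2 ratio of the cosine was 1.46 ± 0.05, 2.75-fold, with the peak at ZT1.85 ± 0.148 h (edgeR adjusted p = 3.84e-37).

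The other canalicular exporters were high later in the day than Abcb11. Abcc2 ran from 831 through 939 to 1193 CPM at ZT9 and from 426 through 520 to 626 CPM at ZT0. The 11 livers at ZT9 all lay above the 12 at ZT0, with means of 978 ± 118 and 513 ± 61.3 CPM (SD) and a ratio of 1.91; the cosine gave a log2 ratio of 0.84 ± 0.07 with a peak at ZT9.70 ± 0.315 h (edgeR adjusted p = 2.53e-18). The phospholipid exporter Abcb4 changed less: it had group medians of 244 to 257 CPM from ZT3 to ZT12 and of 182 to 208 CPM in the other groups. Its livers ranged from 207 to 312 CPM at ZT6 and from 171 to 200.5 CPM at ZT15, without overlap, and the log2 ratio was 0.48 ± 0.06 with a peak at ZT7.06 ± 0.417 h (edgeR adjusted p = 1.78e-10). Export genes of the same membrane therefore had fitted peaks spread from ZT1.85 to ZT9.70.

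Both importers were highest at ZT9. Slc10a1 ran from 595 through 819 to 1031 CPM at ZT9 and from 378 through 557 to 627 CPM at ZT21, where 10 of 11 livers at ZT9 lay above all 6 at ZT21. Its means were 815 ± 123 (SD, n = 11) and 538 ± 87.1 CPM (SD, n = 6), and its log2 ratio was 0.52 ± 0.08 with a peak at ZT10.2 (edgeR adjusted p = 2.62e-07). Slco1b2 ran from 929 through 1264 to 1460 CPM at ZT9 and from 536 through 875 to 1005 CPM at ZT21. Again 10 of the 11 livers at ZT9 were above all at ZT21, and the log2 ratio was 0.52 ± 0.09 with a peak at ZT8.69 (edgeR adjusted p = 1.09e-06). In ZT6 replicate 7 the importers moved apart, with Slc10a1 at 1354 CPM, against 400.9 to 851 CPM in the 11 other livers, and Slco1b2 at 679 CPM, against 681 to 1320 CPM. Without both libraries that stood apart, the peaks were at ZT10.9 for Slc10a1 and ZT8.70 for Slco1b2.

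**Figure D3:**
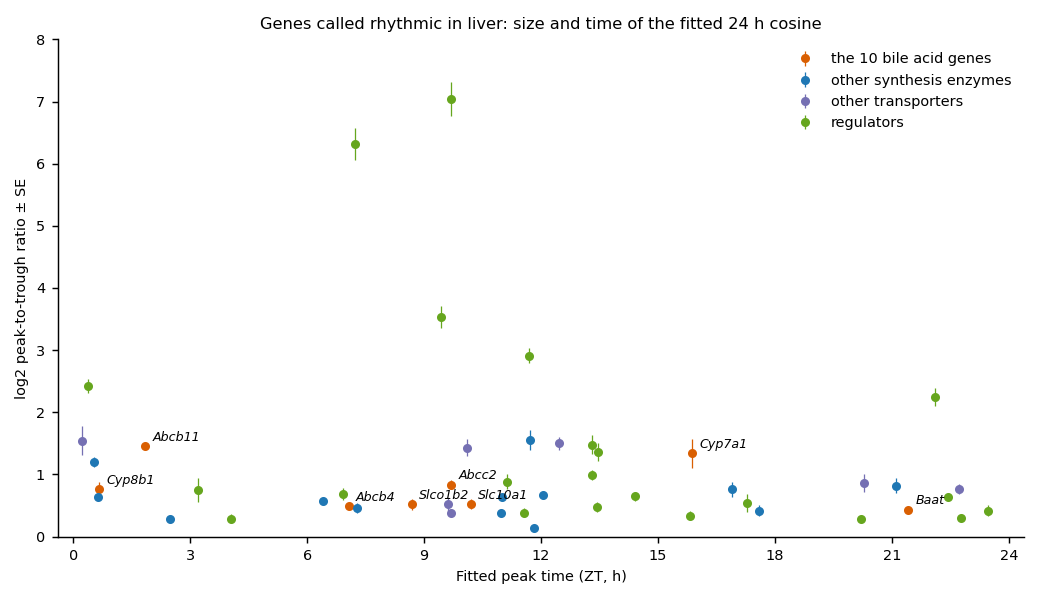
Fitted peak (ZT, hours) against log2 peak-to-trough ratio (± SE) in liver for each called gene of the 10 bile acid genes and of the lists of other synthesis enzymes, other transporters and regulators. Abcb11 lies at ZT1.85 and 1.46, Cyp7a1 at ZT15.9 and 1.34, and Abcc2, Slc10a1 and Slco1b2 lie together between ZT8.69 and ZT10.2.

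Of each list of 6 liver cell type markers, 3 to 5 were called rhythmic, where 72.8% of all genes were. Of the 6 defining hepatocyte markers 3 were called, with group medians of their sum from 96639 CPM at ZT3 to 106601 CPM at ZT15. The summed level of 6 pericentral hepatocyte markers had group medians from 7310 CPM at ZT0 to 13158 CPM at ZT12, with 5 of 6 called. Most of that sum was Cyp2e1, at a median of 7125 CPM over liver libraries against 9557 CPM for the sum. The sum of 6 periportal markers had group medians from 2934 CPM at ZT18 to 3445 CPM at ZT6, with 5 of 6 called. For bile duct cells (cholangiocytes) 5 of 6 markers were called, with sums of 67.0 CPM at ZT15 to 82.6 CPM at ZT0. Kupffer cell markers had 4 of 6 called (84.9 CPM at ZT18 to 142 CPM at ZT3), liver endothelium 5 of 6 (143 CPM at ZT12 to 195 CPM at ZT3) and stellate cells 5 of 6 (217 CPM at ZT12 to 263 CPM at ZT6). Of 6 intestinal genes, Fabp6, Fgf15, Cdx2 and Alpi had a median of 0 in liver. The others, Fabp2 and Vil1, had medians of 47.5 and 0.392 CPM there. The part of these lists in the rhythms of the 10 genes was not tested.

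Groups 12 h apart were compared without a cosine, in an edgeR fit with ZT as a factor over all liver libraries. From ZT0 to ZT12, 7 of 10 members were called, against 46.8% of genes. Abcb11 was 2.53-fold higher at ZT0 (log2 1.34 ± 0.06, edgeR adjusted p = 9.35e-30), and Cyp8b1 (1.54-fold) and Baat (1.33-fold) were also higher then. Abcc2 was 1.67-fold higher at ZT12 (edgeR adjusted p = 1.72e-13), as were Slc10a1 (1.28-fold), Slco1b2 (1.26-fold) and Abcb4 (1.21-fold). Scaled by library totals alone, the calls for Slc10a1, Abcb4 and Slco1b2 were lost, with edgeR adjusted p of 0.0558, 0.120 and 0.113, which left 4. The groups did not overlap for Abcb11 and Abcc2, against 11.3% of genes.

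From ZT3 to ZT15, 4 of 10 were called, against 38.3% of genes. Cyp7a1 was 4.17-fold higher at ZT15 (log2 difference of ZT3 minus ZT15 -2.06 ± 0.29, edgeR adjusted p = 8.68e-09). Higher at ZT3 were Abcb11 (2.60-fold), Cyp8b1 (1.76-fold) and Abcb4 (1.37-fold). Cyp7a1 and Abcb11 had groups that did not overlap, against 12.0% of genes. Cyp7a1 and Cyp8b1 thus differed between these hours, in opposite directions.

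From ZT6 to ZT18, 5 of 10 were called, against 35.5% of genes, with Abcb11 (1.54-fold), Abcb4 (1.30-fold) and Abcc2 (1.21-fold) higher at ZT6, and Cyp7a1 (1.76-fold) and Baat (1.15-fold) higher at ZT18. Abcb11 alone did not overlap, against 4.8% of genes. Both libraries that stood apart are in these groups. Scaled by library totals alone, 3 were called, and the calls for Cyp7a1 and Baat were lost (edgeR adjusted p = 0.118 and 0.660). Without both libraries 6 were called, Cyp27a1 being added with a log2 difference of -0.18 ± 0.06 (edgeR adjusted p = 0.0137).

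From ZT9 to ZT21, 6 of 10 were called, against 32.1% of genes. The importers Slco1b2 (1.55-fold) and Slc10a1 (1.52-fold) and the exporters Abcc2 (1.80-fold) and Abcb4 (1.28-fold) were higher at ZT9, and Baat (1.35-fold) and Abcb11 (1.34-fold) at ZT21. Abcc2 and Baat did not overlap between the groups, against 9.2% of genes. Cyp8b1 was 1.36-fold higher at ZT21 and missed the threshold (edgeR adjusted p = 0.0564), but without both libraries that stood apart it passed (edgeR adjusted p = 0.0417).

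**Figure D4:**
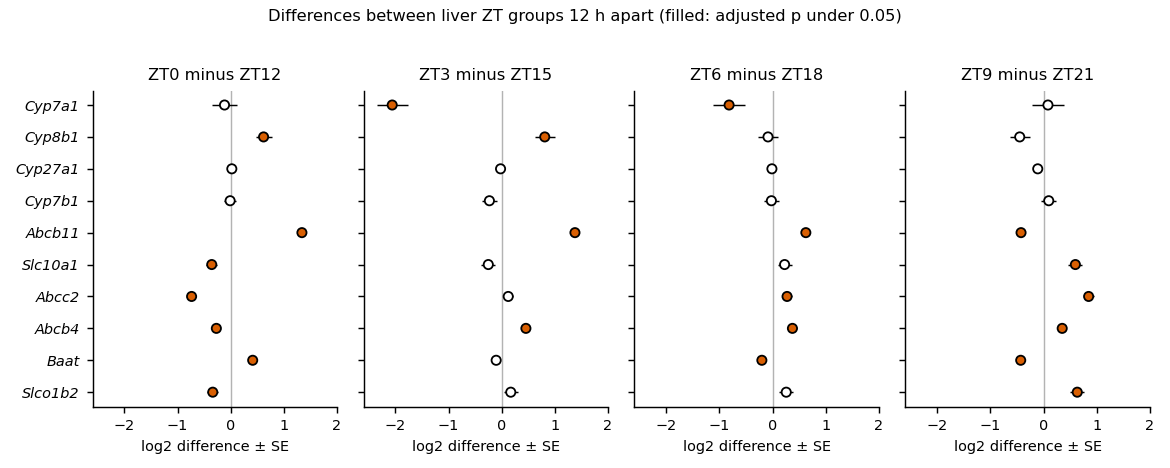
Log2 difference (± SE) of each of the 10 genes between liver ZT groups 12 h apart, 1 panel per pair, with filled points at an edgeR adjusted p under 0.05. Cyp7a1 falls to -2.06 in ZT3 minus ZT15, while Abcb11 is above 0 in each pair but ZT9 minus ZT21.

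A 12 h term added to the cosine tested for wave forms that depart from a single 24 h cosine. By it 2 of 10 members were called, against 15.4% of genes, and a call does not require 2 peaks a day. For Cyp7a1 the log2 ratio of the term was 0.91 ± 0.22 (edgeR adjusted p = 0.00791), where the median over all genes was 0.15. The term itself peaked at ZT9.71 and ZT21.7. For Abcb11 the log2 ratio was 0.18 ± 0.05 (edgeR adjusted p = 0.0228), with peaks of the term at ZT7.44 and ZT19.4. Those hours are not peaks of its level. Its group medians fell from 892 CPM at ZT3 to 338 CPM at ZT12 and rose again from there. Only Abcb11 lost the call under another setting, at an edgeR adjusted p of 0.629 with library totals alone and 0.0716 with no filter on low counts. The group medians of Cyp7a1, 55.2 CPM at ZT3 and 105 CPM at ZT6 against 186 CPM or more in the other groups, show a single trough of a few hours.

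Levels were compared between the cycles at ZT0 to ZT12, over 59 libraries. By edgeR 0 of 10 members and 0.0% of 15604 genes were called, while 1101 genes had an unadjusted p under 0.05, none of them a member; DESeq2 called 0 genes. The largest difference among the members was that of Cyp7a1, with a log2 of 0.11 ± 0.16 for the second minus the first cycle. At ZT3 its median was 37.5 CPM (18.9 to 90.7) in the first cycle and 73.2 CPM (25.2 to 127) in the second, ranges that overlapped.

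Ratios within a library do not depend on how libraries are scaled, and 3 were compared between groups 12 h apart in 12 tests, of which 8 had an adjusted p under 0.05. Cyp8b1 over Cyp7a1, the 12alpha-hydroxylase over the rate-limiting enzyme, had a median count ratio of 10.4 at ZT3 and 1.24 at ZT15. The mean log2 ratio was 3.34 ± 0.62 (SD, n = 12) and 0.31 ± 0.53 (SD, n = 6), an 8.19-fold difference with no overlap (two-sided exact permutation test, p = 5.39e-05, adjusted p = 0.000215). From ZT0 to ZT12 the difference was 1.70-fold (permutation test, p = 0.00051, adjusted p = 0.00102), and the groups overlapped. From ZT6 to ZT18 it was 1.80-fold (exact permutation test, adjusted p = 0.0441), and the adjusted p was 0.0599 without ZT18 replicate 4 and 0.0678 without both libraries that stood apart. At ZT9 against ZT21 the ratio was lower at ZT9 by a log2 of -0.47 and missed the threshold (exact permutation test, adjusted p = 0.0546).

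Cyp7b1 over Cyp7a1, the enzymes that hydroxylate the same ring position in the alternative and the classic pathway, was 3.97-fold higher at ZT3 than at ZT15 (exact permutation test, adjusted p = 0.000388), with groups that overlapped. At ZT6 against ZT18 it was 1.94-fold higher (exact permutation test, adjusted p = 0.0481), and the adjusted p was 0.0857 without ZT18 replicate 4 and 0.123 without both libraries. The other pairs gave an adjusted p of 0.772 each by permutation.

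Abcb11 over Slc10a1, export over uptake of bile salts, changed within the day. Counts were not scaled to gene length, 5146 bases for Abcb11 and 1674 for Slc10a1 in the authors' models. Only the change of the ratio between groups is therefore read, not which gene was higher. It was 3.26-fold higher at ZT0 than at ZT12 (permutation test, p = 1e-05, the smallest 100000 permutations can give; adjusted p = 0.00012) and 3.10-fold higher at ZT3 than at ZT15 (exact permutation test, adjusted p = 0.000215). At ZT21 it was 2.01-fold higher than at ZT9 (exact permutation test, adjusted p = 0.000242), and in these 3 pairs no library of one group overlapped the other. The median count ratio was 1.55 at ZT0, 0.639 at ZT9 and 0.456 at ZT12. At ZT6 against ZT18 the adjusted p was 0.0640 by the exact permutation test (log2 0.46) and 0.000458 without both libraries that stood apart (log2 0.66).

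**Figure D5:**
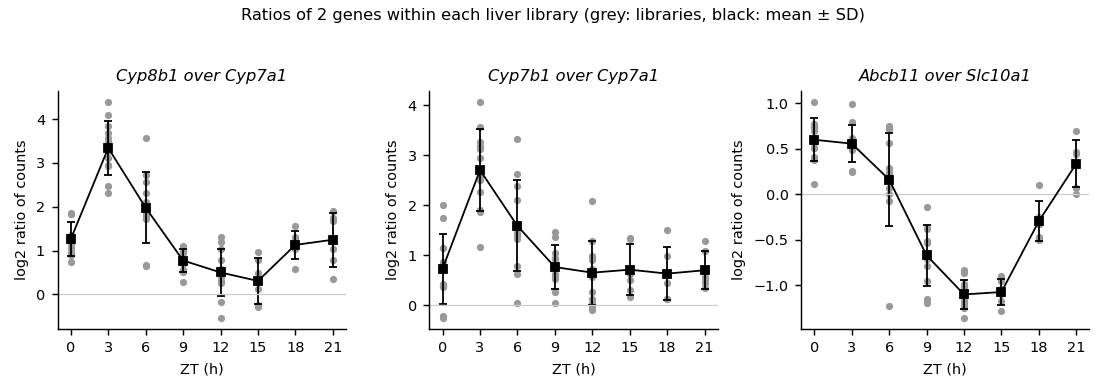
Log2 ratios of 2 genes within each liver library by ZT (grey points), with the mean ± SD of each group in black, for Cyp8b1 over Cyp7a1, Cyp7b1 over Cyp7a1 and Abcb11 over Slc10a1. The first is highest at ZT3 (mean 3.34), and the mean of the last is lower from ZT9 to ZT18 than in the other groups. Counts are not scaled to gene length, so 0 does not mark equal levels.

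After the mean of each ZT group was removed, Cyp7a1 rose and fell with Cyp8b1 between livers of the same hour. Pearson's r was 0.485 and Spearman's rho 0.499 over 77 livers (permutation test within ZT groups, p = 1e-05 for each, the smallest 100000 permutations can give; adjusted p = 9e-05 over 9 relations). Without the 2 livers farthest from the median of Cyp7a1 r was 0.439, and without both libraries that stood apart 0.551. For the other 8 members r lay between -0.102 and 0.0395, with an adjusted p of 0.915 for each by permutation. The 2 genes thus varied in the same direction between livers at a given hour and in opposite directions between ZT3 and ZT15.

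Among 10509 genes with enough counts, those whose log2 CPM was most like that of a member over the 77 livers are listed by Pearson's r, as a description; the libraries share their ZT structure. For Cyp7a1 they were Mtrr (0.690), Polr1a (0.687) and Fastkd1 (0.678). For Cyp8b1 they were Dhrs3 (0.743) and Odf3b (0.742), and for Cyp7b1 Selenbp2 (0.743), Gulo (0.667) and Ugt2b38 (0.643). Abcb11 had the closest matches of the 5 genes examined, Gas7 (0.943), Amt (0.931) and Spon2 (0.922). For Slc10a1 they were Slc2a2 (0.805), Cyp2d22 (0.798) and Immp2l (0.795).

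Other enzymes of bile acid synthesis were called in liver in 13 of 15 tested cases, with a median log2 ratio of 0.58, against 72.8% and 0.38 over all genes tested. Fitted peaks of the 13 ran from ZT0.526 for Hsd3b7 to ZT21.1 for Cyp2c70. Of the 4 with the smallest adjusted p, Hsd3b7, which acts after the 7alpha-hydroxylases, was at 150.0 ± 8.40 CPM at ZT0 and 58.3 ± 9.89 CPM at ZT12 (SD, n = 12 each), with a fitted peak at ZT0.526 and a log2 ratio of 1.19 ± 0.08 (edgeR adjusted p = 1.91e-21). Acox2, a peroxisomal oxidase of side-chain shortening, peaked at ZT0.622 with a log2 ratio of 0.64 (edgeR adjusted p = 1.63e-18). The acyl-CoA synthetase Slc27a2 peaked at ZT11.0 (0.63, edgeR adjusted p = 8.25e-14) and Fdx1, the electron donor of mitochondrial P450 enzymes, at ZT12.1 (0.67, edgeR adjusted p = 9.89e-14). Hsd17b4 and Acot8 were not called (edgeR adjusted p = 0.342 and 0.579), and Ch25h did not pass the filter on low counts.

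Other transporters were called in 7 of 11 tested cases, a share below the 72.8% of all genes, with a median log2 ratio of 0.52 against 0.38 over all genes. Abcb1a, a multidrug exporter, was at 6.76 ± 0.985 CPM at ZT12 and 2.31 ± 0.335 CPM at ZT0 (SD, n = 12 each), with a fitted ratio of 2.83-fold peaking at ZT12.5 (edgeR adjusted p = 7.36e-21). Slco1a4, an organic anion importer, peaked at ZT10.1 with a log2 ratio of 1.43 (edgeR adjusted p = 6.58e-15), in the same hours as Slco1b2 and Slc10a1. Atp8b1, a lipid flippase of the canalicular membrane, peaked at ZT22.7 with a log2 ratio of 0.77 (edgeR adjusted p = 4.68e-12). Slc51b, a subunit of a basolateral bile acid exporter, had a median of 0.574 CPM. It peaked at ZT0.233 with a log2 ratio of 1.54 (edgeR adjusted p = 7.44e-08), while its partner Slc51a had 0 counts in all 77 liver libraries. Abcc4, Tmem30a, Slco1a1 and Slco2b1 were not called (edgeR adjusted p = 0.266, 0.588, 0.0606 and 0.0510). How reads shared by related Slco1 and Abcb1 family genes were counted is not given in the sources used here.

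Regulators of these genes were called in 22 of 22 tested cases, with a median log2 ratio of 0.72, against 72.8% and 0.38 over all genes. The list holds clock and clock-output genes, among them Dbp, Tef, Hlf, Nr1d1, Nr1d2, Nfil3 and Bhlhe40, and was chosen with earlier results known. Its share and median are therefore not read as a result about regulators. The 4 with the smallest adjusted p were Insig2 and 3 genes of the clock and its output: Dbp peaked at ZT9.69 with a log2 ratio of 7.04 (edgeR adjusted p = 6.52e-34), Nr1d1 6.32 at ZT7.22 (edgeR adjusted p = 1.68e-31) and Tef 2.91 at ZT11.7 (edgeR adjusted p = 6.70e-32). Insig2, which retains sterol sensors in the endoplasmic reticulum, was at 346 ± 45.2 CPM at ZT3 and 58.5 ± 10.2 CPM at ZT12 (SD, n = 12 each), with a peak at ZT0.371 (log2 ratio 2.43, edgeR adjusted p = 6.87e-30). The bile acid receptor Nr1h4 (FXR) peaked at ZT13.4 with 0.48 (edgeR adjusted p = 2.05e-07), and Nr0b2 (SHP), a repressor it induces, was highest at ZT3, at 42.6 ± 12.8 CPM (SD, n = 12), and lowest at ZT18, at 20.7 ± 6.81 CPM (SD, n = 6; log2 ratio 0.75, edgeR adjusted p = 0.00068). Gpbar1, the membrane bile acid receptor, did not pass the filter on low counts.

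In brain Cyp27a1, Cyp7b1 and Abcb4 were the members with appreciable counts. Median CPM of Cyp27a1 was 5.83 in cortex, 13.2 in striatum and 10.4 in hypothalamus, that of Cyp7b1 10.2, 12.6 and 11.5, and that of Abcb4 6.77, 5.47 and 5.36, in that order. The other 7 genes had medians under 0.5 CPM in each region. Slc10a1 had 0 counts in 76 of 78 cortex, 59 of 60 striatum and 71 of 77 hypothalamus libraries, and the highest counts in each region, 18, 8 and 16, were in libraries that held Alb. In cortex ZT0 replicate 10, with 3148 counts of Alb against at most 18 in the 77 others, Abcb11 had 37 counts and Cyp8b1 17, where no other cortex library had over 2 and 1. The part of the Alb-holding libraries in those counts was not tested.

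In cortex 4 of the 6 members tested were called rhythmic, against 43.7% of genes. Cyp27a1 had group medians of 4.87 CPM at ZT21 to 6.24 CPM at ZT12, and its log2 ratio was 0.35 ± 0.08 with a peak at ZT8.53 (edgeR adjusted p = 0.00153). Slco1b2, at a median of 0.459 CPM, had 0.86 ± 0.22 with a fitted peak at ZT23.4 (edgeR adjusted p = 0.00573), and 0.78 without the cortex library that held Alb (edgeR adjusted p = 0.0161). Its group medians were highest at ZT18 (0.633 CPM) and ZT3 (0.611 CPM) and lowest at ZT12 (0.223 CPM). Beside the fitted peak they were lower than at ZT18 and ZT3, at 0.453 CPM (ZT21) and 0.414 CPM (ZT0). Cyp7b1 (0.15, ZT9.09, edgeR adjusted p = 0.0310) and Abcb4 (0.24, ZT8.89, edgeR adjusted p = 0.0353) were closer to the threshold: with the cycle as a covariate, or in the first cycle alone, 2 members were called, and without the Alb-holding library Abcb4 had an edgeR adjusted p of 0.0535, which left 3. Cyp27a1 and Cyp7b1 were highest in cortex ZT9 replicate 9, at 14.02 and 17.1 CPM, where the 77 other libraries reached at most 9.17 and 14.4 CPM. That library also had the highest summed level of 4 oligodendrocyte markers, 11728.5 CPM against a median of 3839 CPM over cortex, and of 4 microglia markers, 318 CPM against 191 CPM. Of each marker list 2 of 4 were called rhythmic in cortex, and their part in the 2 rhythms was not tested. Without the libraries ZT9 replicate 9 and ZT0 replicate 1, Cyp27a1 was called at 0.31 (edgeR adjusted p = 6.31e-05) and Cyp7b1 at 0.13 (edgeR adjusted p = 0.0312).

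In hypothalamus 2 of 4 tested members were called, against 24.3% of genes. They were Cyp7b1, with a log2 ratio of 0.21 at ZT16.3 (edgeR adjusted p = 0.0137), and Abcb4, with 0.28 at ZT8.54 (edgeR adjusted p = 0.00818). Neither was called in the first cycle alone, with the tag of the library label as a factor, or with ZT as a factor (17.9% of genes called). Striatum had only 2 libraries at ZT15 and 4 at ZT18. There edgeR and DESeq2 called 0 of 6 members, against 5.7% of genes by edgeR, and 1 had an unadjusted p under 0.05. That gene was Cyp27a1, at 0.50 ± 0.16 (edgeR adjusted p = 0.118), which was called at 0.59 without the libraries ZT21 replicate 3 and ZT3 replicate 5 (edgeR adjusted p = 0.0454).

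The rhythm itself was compared between liver and each brain region in 1 edgeR fit per pair, over genes that passed the filter in both. Against cortex 4 of 6 members differed, where 63.6% of genes did. They were Slco1b2 (edgeR adjusted p = 1.76e-06), Abcc2 (0.000568), Cyp27a1 (0.000576) and Abcb4 (0.0199). For Slco1b2 the fitted peaks were at ZT8.69 in liver and ZT23.4 in cortex, where its group medians were highest at ZT18 and ZT3. Against striatum 2 of 6 differed, where 42.0% of genes did, Slco1b2 (edgeR adjusted p = 0.000971) and Cyp27a1 (0.00466). Against hypothalamus 2 of 4 differed, where 60.6% of genes did, Abcc2 (edgeR adjusted p = 0.00460) and Abcb4 (0.0424), and Abcb4 was at 0.0651 without the hypothalamus libraries that held Alb. For Cyp7b1 the test missed the threshold against each region, with edgeR adjusted p of 0.512, 0.899 and 0.454.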

How the data were processed

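RNA from cortex, striatum, hypothalamus and liver was measured by mRNA sequencing. The authors deposited raw read counts per gene and FPKM per library, 1 table of each per tissue; STAR 2.7.3a and HTSeq 0.10.0, with GRCm38 and mm10, appear in the submitters' processing notes with no role stated, and neither the annotation release nor the strand setting is given there. The FPKM values the authors deposited were used only to rank levels between genes, since they are per length. Libraries were grouped by the labelled ZT, and replicates within a group are different mice by their codes.

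From the counts, genes were filtered with filterByExpr by ZT group, scaled by TMM and tested with edgeR's quasi-likelihood test, with Benjamini-Hochberg adjustment over all genes tested in that fit and a threshold of 0.05. CPM are counts scaled to a common library size, where the total is the library's count times its TMM factor. The rhythm test has a cosine and a sine term of 24 h, and the ratio is fitted peak over trough with an SE by the delta method. Ratios of 2 members were tested on log2 counts plus 0.5 by two-sided permutation over libraries. Checked on simulated counts of the liver libraries, the median fitted log2 ratio for a true 1.5-fold change was close to the value put in. Software was R 4.3.3, edgeR 4.0.16, limma 3.58.1, DESeq2 1.42.0, numpy 2.4.6, pandas 2.3.3 and scipy 1.17.1.

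The 10 genes and the lists of other enzymes, transporters, regulators and cell type markers were chosen with earlier results of these data known. All 10 members are named, and from each list the 4 called genes with the smallest adjusted p in liver and each exception to a count; Nr1h4 and Nr0b2 were added after their values were seen. Of the lists, 16 of 17 other enzymes, 12 of 12 transporters and 23 of 23 regulators matched an identifier, and Stard1 was not matched. Alternatives were another scaling, no filter, DESeq2, covariates, the first cycle alone, a replicate block, and fits without libraries that stand apart. Promoter windows came from RefSeq (GRCm38.p6); those of Cyp7a1, Cyp7b1 and Baat are not shown, and 1 gene of the likeness ranking of Cyp8b1 is not reported here.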

Additional observations from a re-analysis of the deposited data

Results flagged for a closer look

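Within ZT groups of 4 to 10 libraries, 63 groups of a member's values were checked for 1 library with a wide gap to the rest, and 3 had one; chance alone gives about 1 in 20. In liver ZT18 replicate 4, Cyp27a1 was at 420 CPM, where the 5 other libraries had 560 to 631 CPM, and Baat was at 190.2 CPM, where they had 333 to 367 CPM. That library was the shallowest liver library (11.7 M counts, 62.3% of them on Gm42418), and 6 of the 10 members lay outside the range of the other 5 libraries there; the part of depth in these values was not tested. In striatum ZT21 replicate 3, Cyp27a1 was at 20.5 CPM, where the 5 others had 7.68 to 11.1 CPM. The same library had the highest summed level of stellate cell markers (524 CPM) and of astrocyte markers (1939 CPM) among striatum libraries. It had the lowest of oligodendrocyte markers (3610 CPM). Over striatum libraries Reln reached 480 CPM and no other gene of the stellate list more than 40.5 CPM, so the stellate sum is mostly Reln. The part of these markers in the Cyp27a1 value was not tested.

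The rhythm differed between liver and a brain region, by the edgeR interaction test, in 8 cases, which were 4 of 6 members for cortex, 2 of 6 for striatum and 2 of 4 for hypothalamus, where 63.6%, 42.0% and 60.6% of all genes differed. Against cortex these were Cyp27a1 (adjusted p = 0.000576), Abcc2 (0.000568), Abcb4 (0.0199) and Slco1b2 (1.76e-06). Against striatum they were Cyp27a1 (edgeR adjusted p = 0.00466) and Slco1b2 (0.000971), and against hypothalamus Abcc2 (0.00460) and Abcb4 (0.0424). The same mice gave both tissues, and with the mouse as a block the counts were 4, 2 and 2.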

How the results depend on the processing

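In liver the count of rhythmic members was 8 under 10 of 11 alternatives and 9 without ZT18 replicate 4 and ZT6 replicate 7; no result reversed. Scaling by library totals alone gave 4 members for ZT0 and ZT12, 3 for ZT6 and ZT18 and 1 for the 12 h term, for which no filter on low counts also gave 1. In cortex 2 members were called with the cycle as a covariate and 2 in the first cycle alone. In striatum 1 was called without ZT21 replicate 3 and ZT3 replicate 5; leaving out each ZT15 or ZT18 library in turn gave 0 to 0. In hypothalamus 5 were called with no filter, and 0 with the library-label tag as a factor, in the first cycle alone or with ZT as a factor. For liver against hypothalamus the count was 1 with DESeq2's size factors, 1 without the libraries that stand apart, 1 without those that hold Alb (chosen after seeing the data) and 5 with no filter. Except where fewer samples or other genes were tested by construction, the cause was not tested.

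With the replicate number as a block, the liver count was 8, cortex 4, striatum 0, hypothalamus 2, the ZT pairs 7, 4, 5 and 7, the 12 h term 2 and the cycles 0; the added call was Cyp8b1 in ZT9 against ZT21 (log2 -0.50, edgeR adjusted p = 0.0447). The numbers do not pair mice: over 224 same-number pairs of liver libraries the median correlation of deviations was 0.0147, and 12 of 77 libraries matched best with their own number. The brain tests of Slco1b2, Baat and Abcc2 rest on low counts, with medians there under 0.5 CPM, and the part of depth in them was not tested.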
